A study of Mus musculus with 63 samples.

Results

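The 49 genes described here encode the hydrolases of the lysosomal lumen and the proteins of the lysosomal membrane. They were listed by name and function, with the cathepsins and the proton pump left out, and no measured value entered the rule, although earlier results of these data were known when the list was made. All 49 were found among the 56748 genes listed and all 49 passed the filter on low counts that left 22147 genes for testing. They were measured by poly(A) RNA sequencing in 63 libraries of mouse peritoneal macrophages, the phagocytes that enter the abdominal cavity after an injection of thioglycollate broth. The study asked how the R1441C mutation of Lrrk2, a kinase gene mutated in familial Parkinson disease, acts in macrophages of either sex and at different ages, lysosomal function among the properties named.

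Every mouse had received 3% thioglycollate broth 72 h before collection and a sustained-release opioid for pain relief. Mice were wild-type (B6) or R1441C knock-in and 2 to 3 months (young) or 18 to 21 months (old) of age, and the adherent cells had received 100 U of interferon-gamma (IFN) or water as vehicle (untreated) for 18 h. Among wild-type libraries there were 5 from old IFN females, 5 from old untreated females, 3 from young IFN females, 3 from young untreated females, 5 from old IFN males, 3 from old untreated males, 5 from young IFN males and 3 from young untreated males. Among knock-in libraries the numbers in the same order were 5, 5, 2, 5, 5, 3, 3 and 3. The labels number the libraries within a group but do not say that each came from its own mouse, so p-values measure the spread between these libraries.

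Lysosomes are the acidic organelles in which a macrophage degrades what it has engulfed and the worn parts of the cell itself. Soluble hydrolases each cut a particular bond in sugars, lipids, proteins or nucleic acids, small activator proteins present lipids to them, and transporters in the membrane release the products. A coat of heavily glycosylated membrane proteins, of which LAMP1 and LAMP2 are the best known, lines the inside of the organelle. Many of these genes carry an E-box in their promoter that is bound by TFEB and its relatives, and loss of a single hydrolase, activator or transporter can cause a lysosomal storage disease.

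Total counts per library ran from 73.6 M to 106.6 M, with a median of 98.2 M. Macrophage transcripts were present in every library, with Adgre1 from 491 to 1334 CPM (counts scaled to a common library total) and Lyz2 from 15345 to 33160 CPM, whereas all 10 T and NK cell markers had medians under 1 CPM. Summed B-cell markers ran from 23.8 to 2963 CPM, and mesothelial and fibroblast markers from 13.8 to 501 CPM. The latter had medians of 128 CPM under the old and 244 CPM under the young label, and of 135 CPM under IFN and 255 CPM untreated. Their part in the changes below was not tested. The IFN-response genes separated the age labels and not the treatment labels. The 10 of them summed to between 12845 and 21151 CPM in the 36 libraries labelled old and to between 209 and 3173 CPM in the 27 labelled young. Between treatment labels they overlapped, at 308 to 19087 CPM in the 33 IFN libraries and 209 to 21151 CPM in the 30 untreated ones. The comparisons below are therefore named by label, and an effect of age and an effect of IFN cannot be told apart from these labels. The 3 libraries of knock-in old untreated males also carry conflicting labels for treatment. Libraries 4 and 5 of knock-in old IFN females were nearly without Xist (1.69 and 1.55 CPM) and without Ddx3y (0.624 and 0.601 CPM), and 13 pairs of libraries, each within a group, were much closer to each other than other replicates. These pairs lay in all IFN groups except those of wild-type females, in young untreated knock-in females and in old untreated wild-type females.

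Promoter sequences are shown for 5 members, 3 of them for their motifs and 2 for their changes between labels. Each line gives the 250 bases before the transcription start from RefSeq on GRCm38.p6, in the direction of transcription. Capitals mark the E-box CACGTG, its longer form TCACGTGA, and the interferon-stimulated response motif (TTTC, any 2 bases, TTTC), searched on both strands. No capitals mean that none of these letters lies in the stretch shown. Lamp1 and Mcoln1, the gene of a calcium channel of the lysosomal membrane, are shown for their repeated E-boxes, Sgsh, the gene of heparan N-sulfatase, for a single E-box close to the start, and the lipid hydrolase genes Plbd1 and Ppt1 for the size of their changes.
Lamp1, chr8:13158911-13159160, plus strand: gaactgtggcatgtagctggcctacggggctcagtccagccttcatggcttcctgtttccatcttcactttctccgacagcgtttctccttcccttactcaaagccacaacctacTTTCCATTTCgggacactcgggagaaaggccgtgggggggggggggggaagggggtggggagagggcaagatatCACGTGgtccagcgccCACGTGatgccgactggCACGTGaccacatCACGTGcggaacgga
Mcoln1, chr8:3500269-3500518, plus strand: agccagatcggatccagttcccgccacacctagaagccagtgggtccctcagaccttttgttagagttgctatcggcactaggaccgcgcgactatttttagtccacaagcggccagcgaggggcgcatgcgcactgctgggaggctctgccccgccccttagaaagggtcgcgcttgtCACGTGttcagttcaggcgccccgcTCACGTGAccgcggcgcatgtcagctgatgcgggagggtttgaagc
Sgsh, chr11:119355511-119355760, minus strand: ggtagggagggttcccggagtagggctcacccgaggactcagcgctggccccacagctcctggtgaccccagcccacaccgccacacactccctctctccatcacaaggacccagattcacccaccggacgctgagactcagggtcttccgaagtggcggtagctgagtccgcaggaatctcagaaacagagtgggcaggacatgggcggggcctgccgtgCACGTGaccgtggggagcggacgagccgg
Plbd1, chr6:136661894-136662143, minus strand: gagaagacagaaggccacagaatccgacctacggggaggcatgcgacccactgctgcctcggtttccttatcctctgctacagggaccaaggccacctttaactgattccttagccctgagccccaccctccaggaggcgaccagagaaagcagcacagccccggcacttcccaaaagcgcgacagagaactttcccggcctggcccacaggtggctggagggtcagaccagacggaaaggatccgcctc
Ppt1, chr4:122835977-122836226, plus strand: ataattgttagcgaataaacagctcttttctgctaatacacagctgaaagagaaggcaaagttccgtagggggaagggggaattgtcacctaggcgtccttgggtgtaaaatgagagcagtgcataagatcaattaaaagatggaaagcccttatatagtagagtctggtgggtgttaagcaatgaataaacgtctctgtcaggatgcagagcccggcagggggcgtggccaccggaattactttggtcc

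Of the 49 members, 44 had a promoter in the RefSeq table, with 50 promoters of 300 bases in all (250 before and 50 after the start). Plbd2, Npc1, Galns, Aga and Asah1 were not matched. CACGTG was present in 11 of the 50 promoters (22%), against 7.15% of the 32851 promoters in the table. Lamp1 held 4 copies, at 61, 45, 28 and 15 bases before the start, and Plbd1 held 1 copy that lies 43 bases after the start, outside the stretch shown. The longer TCACGTGA, which contains the E-box, was present in 3 promoters (6%, against 0.974% of all), those of Cln3, Gla and Mcoln1. The interferon-stimulated response motif was present in 1 member promoter (2%, against 3.44%), that of Lamp1, and the gamma-activated site TTCNNNGAA in 3 (6%, against 8.3%), those of Arsa, Cln3 and Gm2a. E-boxes were present in 2 of 10 promoters of genes higher under the old label in both genotypes, in 3 of 21 promoters of genes lower in both, and in 6 of 19 of the remaining ones. A match describes letters and not binding.

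The members spanned more than 3 orders of magnitude in level. By the deposited FPKM (fragment counts scaled by transcript length and library depth), which allow levels to be compared between genes, Psap was the most abundant member, with a median of 10522 FPKM and rank 2 among all genes listed. Psap encodes prosaposin, the precursor of the saposins that help hydrolases to act on sphingolipids. Gpnmb, a transmembrane glycoprotein of lipid-laden macrophages, followed at 2305 FPKM (rank 18), then Cd68 at 1490, Lamp1 at 970, Hexa at 752, Grn at 660 and Lgmn at 581 FPKM. The least abundant members were Hyal1 at 2.52, Arsb at 4.44, Galc at 7.48 and Sgsh at 7.86 FPKM, all 4 enzymes that degrade glycosaminoglycans or, for Galc, galactosylceramide. Within groups, the standard deviation of log2 CPM was lowest for Scarb2 (0.087), Neu1 (0.098) and Idua (0.10) and highest for Gpnmb (0.75), Hyal1 (0.44) and Lgmn (0.43).

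The largest log2 changes among the members lay between libraries labelled old and young, and they ran in both directions. In wild-type macrophages 35 of 49 members (71.4%) were called at an edgeR adjusted p under 0.05, where 61.1% of all 22147 genes were called, so the share among members lay near that background. Of these, 13 were higher under the old label (28.1% of all genes were) and 22 lower (33% of all genes). In knock-in macrophages 34 members (69.4%) were called, against 60.1% of all genes, with 13 higher (27.9% of all genes) and 21 lower (32.2% of all genes). All 34 were called with the same sign in wild-type cells, and Laptm5, a lysosomal membrane protein of blood cells, was called lower in wild-type cells alone, at -0.19 ± 0.06 on the log2 scale against -0.13 ± 0.07 in knock-in cells. The median log2 change of the members was -0.05 in wild-type and -0.08 in knock-in cells, next to -0.08 and -0.05 for all genes. In the wild type 10 of 10 IFN-response genes and 4 of 6 dendritic cell markers were also called higher under the old label, and their part in these changes was not tested.

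**Figure D1:**
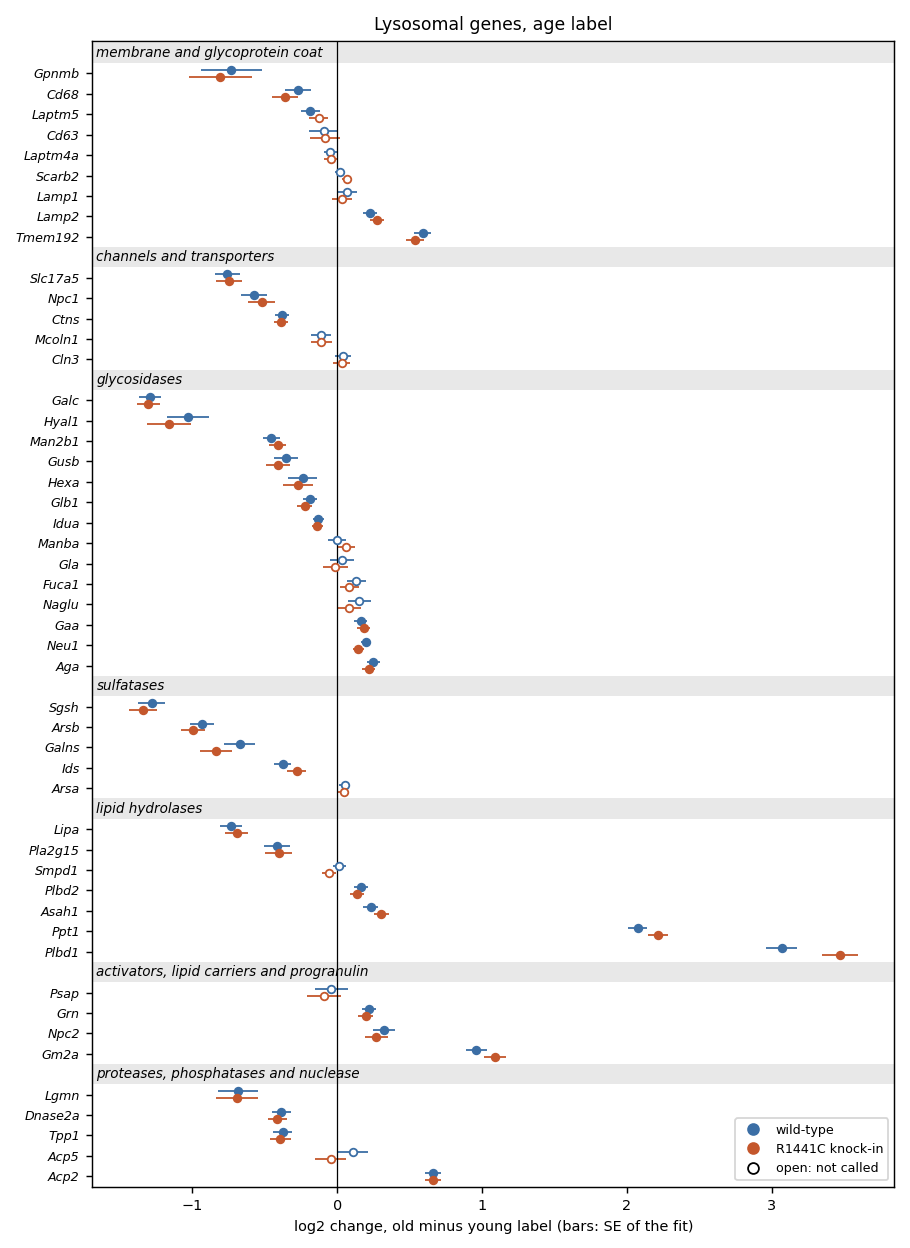
Log2 change between libraries labelled old and young for each of the 49 lysosomal genes, grouped by role, in wild-type (blue) and R1441C knock-in (orange) macrophages. Points are fitted changes with their standard errors and filled points were called at an adjusted p under 0.05. Plbd1 and Ppt1 lie furthest right, Galc and Sgsh furthest left, and the 2 genotypes lie side by side in most rows.

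The plot of changes by role shows that the widest changes in either direction were in hydrolases. The counts by role here and below stand next to the share of all genes called. In the wild type 28.1% of all genes were higher and 33% lower, and in the knock-in 27.9% and 32.2%. Among the 7 lipid hydrolases, 4 were higher under the old label and 2 lower in either genotype. Plbd1, a phospholipase B-like protein of the lysosome, had the largest change of all members, 3.07 ± 0.11 (SE) in wild-type and 3.47 ± 0.12 in knock-in macrophages on the log2 scale (edgeR adjusted p = 1.9e-30 and 1.6e-30). Over the 36 old libraries its lowest, median and highest values were 109, 227 and 329 CPM, and over the 27 young ones 10.4, 22.7 and 49.2 CPM, so the labels did not overlap.

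Group by group, Plbd1 in young wild-type libraries was 15.7 ± 5.37 CPM (mean ± SD, with the group sizes given above) in untreated females, 43.5 ± 6.04 in IFN females, 18.2 ± 3.91 in untreated males and 23.9 ± 4.19 in IFN males. In young knock-in libraries the same 4 groups stood at 32.6 ± 2.33, 14.9 ± 6.42, 24.1 ± 7.14 and 24.4 ± 10.9 CPM. The young females were thus high under IFN in the wild type and high without it in the knock-in. In old libraries the values were 249 ± 37.5, 161 ± 32.4, 196 ± 12.9 and 187 ± 12.4 CPM in the wild type. In the old knock-in libraries they were 271 ± 17.9, 254 ± 17.6, 295 ± 52.1 and 215 ± 20.6 CPM. Every old group thus stood above every young group.

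Ppt1 encodes palmitoyl-protein thioesterase, which strips fatty acids from proteins, and it too separated the labels, with 396, 716 and 869 CPM (lowest, median and highest) in old and 121, 164 and 226 CPM in young libraries. Its log2 change was 2.07 ± 0.06 in wild-type and 2.22 ± 0.07 in knock-in cells (edgeR adjusted p = 2.1e-33 and 3.6e-33). The group means of Ppt1 ran from 135 CPM, in young untreated wild-type and young IFN knock-in females, to 787 ± 63.3 CPM in old untreated knock-in males. In young wild-type libraries they were 135 ± 14.5, 207 ± 14.3, 150 ± 15.2 and 180 ± 27.6 CPM for untreated females, IFN females, untreated males and IFN males, and in young knock-in libraries 171 ± 17.3, 135 ± 20.5, 158 ± 6.19 and 179 ± 15.6 CPM. In the same order the old wild-type groups stood at 756 ± 49.1, 611 ± 132, 732 ± 33 and 700 ± 20.6 CPM and the old knock-in groups at 691 ± 56.6, 718 ± 67.1, 787 ± 63.3 and 781 ± 84.6 CPM. The old groups lay close together, as did the young ones, and the step between them was the main difference.

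**Figure D2:**
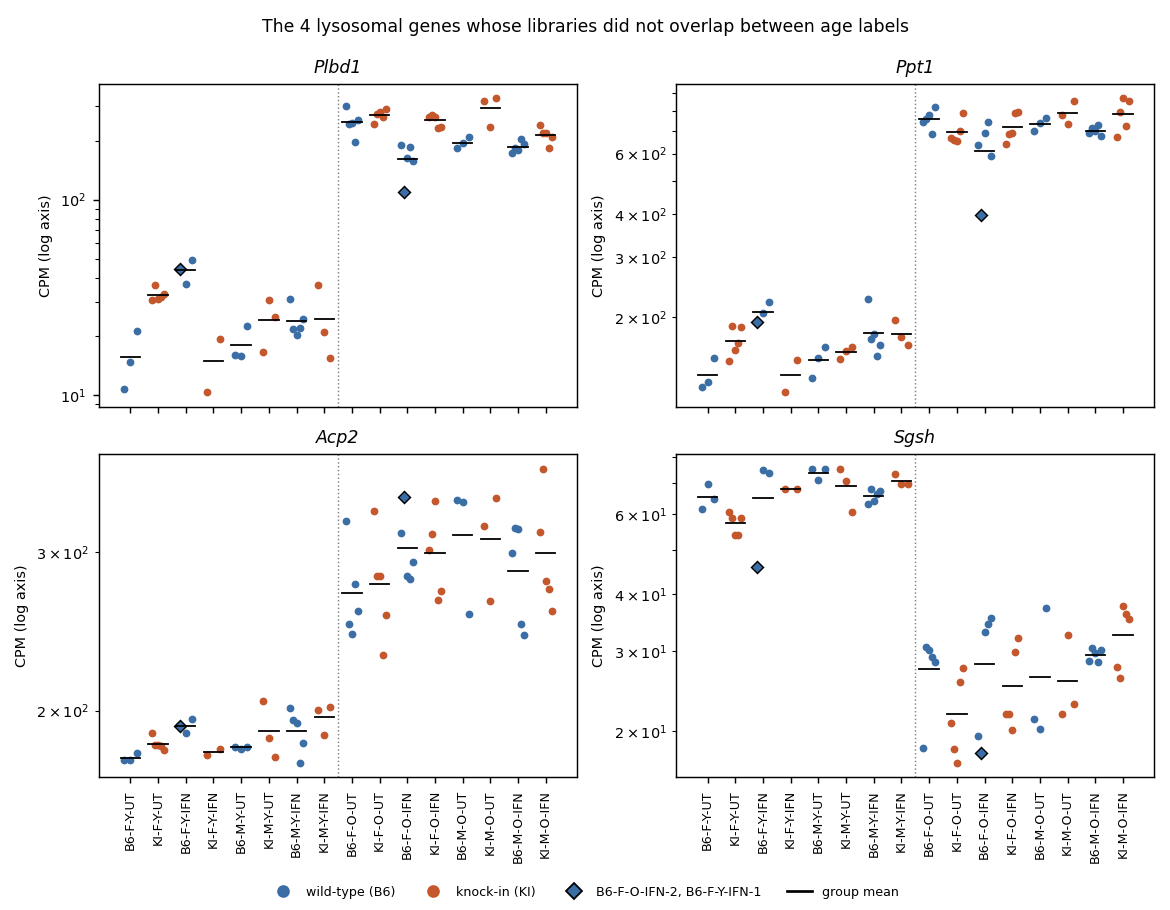
CPM in each library (points, log axes) for Plbd1, Ppt1, Acp2 and Sgsh in the 16 groups, with group means as bars and the dotted line between young (left) and old (right) labels. All 36 old libraries lie above all 27 young ones for Plbd1, Ppt1 and Acp2 and below them for Sgsh.

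The plot of 4 members by library shows the complete separations. Among all genes tested, 4.79% were higher in all old libraries than in any young one and 1.84% lower. Of the 49 members, 3 were higher (Plbd1, Ppt1 and Acp2), 1 was lower (Sgsh) and 45 overlapped. Acp2, the lysosomal acid phosphatase, had 230, 282 and 371 CPM in old against 175, 183 and 205 CPM in young libraries, a smaller step that still held in every library. Its log2 change was 0.66 ± 0.05 in wild-type and 0.66 ± 0.06 in knock-in cells (edgeR adjusted p = 1.1e-15 and 5.5e-15).

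The remaining lipid hydrolases moved less. Lipa, the acid lipase that frees cholesterol from its esters, changed by -0.73 and -0.69 on the log2 scale in wild-type and knock-in cells, and the phospholipase gene Pla2g15 by -0.41 and -0.40. Asah1, acid ceramidase, rose by 0.23 and 0.30, and Plbd2, the relative of Plbd1, by 0.17 and 0.14. Smpd1, acid sphingomyelinase, was not called in either genotype (0.02 ± 0.05 and -0.06 ± 0.05). So the pair of phospholipase B-like genes changed in the same direction by very different amounts.

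Of the 4 activators, lipid carriers and progranulin, 3 were higher under the old label in either genotype and none lower. Gm2a, which lifts the GM2 ganglioside out of the membrane for cleavage, rose by 0.96 ± 0.07 and 1.09 ± 0.08 in wild-type and knock-in cells (edgeR adjusted p = 1e-16 and 7e-18). Its old libraries stood at 414, 1110 and 1700 CPM (lowest, median and highest) and its young ones at 398, 545 and 668 CPM, with an overlap made by the lowest old libraries. Npc2, the soluble cholesterol carrier, rose by 0.32 ± 0.08 and 0.27 ± 0.08. Grn encodes progranulin, a lysosomal growth-factor-like protein whose loss causes frontotemporal dementia, and it rose by 0.22 ± 0.05 and 0.20 ± 0.05. Psap, the most abundant member, was not called, at -0.04 ± 0.11 and -0.09 ± 0.12.

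The sulfatases remove sulfate from glycosaminoglycans and sulfolipids. Of the 5, 4 were lower under the old label and none higher in either genotype, where 33% and 32.2% of all genes were lower. Sgsh changed by -1.28 ± 0.09 in wild-type and -1.34 ± 0.10 in knock-in cells (edgeR adjusted p = 1.6e-17 and 7.8e-18), with 17, 28.4 and 37.6 CPM in old and 45.7, 67.8 and 75.3 CPM in young libraries. Young wild-type group means of Sgsh were 65.3 ± 4.3, 64.9 ± 16.6, 73.8 ± 2.35 and 65.7 ± 2.09 CPM in untreated females, IFN females, untreated males and IFN males, and young knock-in means 57.2 ± 3.09, 68 ± 0.172, 68.9 ± 7.54 and 70.9 ± 2.13 CPM. In the same order the old wild-type means were 27.3 ± 5.08, 28 ± 8.54, 26.2 ± 9.53 and 29.4 ± 0.925 CPM and the old knock-in means 21.9 ± 4.55, 25.1 ± 5.42, 25.7 ± 5.85 and 32.5 ± 5.27 CPM. Each young group was thus higher than each old one. Arsb, arylsulfatase B, changed by -0.93 ± 0.08 and -1.0 ± 0.08, Galns, which acts on keratan sulfate, by -0.67 ± 0.11 and -0.83 ± 0.11, and Ids, iduronate sulfatase, by -0.38 ± 0.06 and -0.28 ± 0.06. Arsa, the sulfatase of sulfatide, was not called (0.05 ± 0.04 and 0.04 ± 0.04).

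Of the 14 glycosidases and related enzymes, 3 were higher and 7 lower under the old label in either genotype. Galc, galactosylceramidase, changed by -1.29 ± 0.08 and -1.31 ± 0.08 in wild-type and knock-in cells (edgeR adjusted p = 4.7e-21 and 9.6e-21). Its old libraries stood at 43.2, 106 and 126 CPM and its young ones at 118, 260 and 295 CPM, so only the extremes met. Galc group means in the young wild type were 277 ± 22.9 CPM in untreated females, 199 ± 70.4 in IFN females, 286 ± 7.75 in untreated males and 257 ± 12.7 in IFN males, and in the young knock-in 262 ± 8.31, 261 ± 13, 248 ± 13.3 and 269 ± 28 CPM. The old wild-type groups, in the same order, stood at 109 ± 7.61, 90.5 ± 27, 106 ± 6.72 and 107 ± 3.05 CPM and the old knock-in groups at 101 ± 7.71, 99 ± 11, 110 ± 9.95 and 110 ± 12.9 CPM. Each young group mean was above each old one.

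Hyal1, a hyaluronidase and the least abundant member, changed by -1.03 ± 0.15 in wild-type and -1.16 ± 0.15 in knock-in cells (edgeR adjusted p = 2.2e-08 and 2e-09). Its young wild-type means were 19.6 ± 2.54, 10.3 ± 6.77, 15.1 ± 0.176 and 12.5 ± 3.64 CPM in untreated females, IFN females, untreated males and IFN males, and the knock-in means 16.6 ± 1.29, 21.7 ± 4.75, 16.1 ± 1.66 and 20.5 ± 1.81 CPM. The old wild-type means were 8.25 ± 3.11, 6.97 ± 2.16, 8.07 ± 1.92 and 4.7 ± 0.823 CPM and the old knock-in means 8.09 ± 2.66, 8.55 ± 1.49, 7.41 ± 1.12 and 9.2 ± 1.98 CPM. Smaller decreases were called for Man2b1, Gusb, Hexa, Glb1 and Idua, between -0.45 and -0.13 in the wild type. Aga, which splits the link between sugar and asparagine, rose by 0.25, the sialidase gene Neu1 by 0.20 and Gaa, the acid glucosidase of glycogen breakdown, by 0.16 in the wild type. Gla, Fuca1, Naglu and Manba were not called in either genotype.

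Membrane proteins held both directions. Of 9 coat and membrane proteins, 2 were higher and 3 lower in the wild type. Tmem192, a membrane protein often used as a handle for isolating lysosomes, rose by 0.59 ± 0.06 and 0.54 ± 0.06 in wild-type and knock-in cells, and Lamp2 by 0.23 ± 0.05 and 0.27 ± 0.05. Lamp1 was not called, at 0.07 ± 0.07 and 0.03 ± 0.07, with old libraries at 1299, 2650 and 3266 CPM and young ones at 1336, 2598 and 3086 CPM. Scarb2, the receptor that carries glucocerebrosidase to the lysosome, was not called either, at 0.02 ± 0.03 and 0.07 ± 0.04. Gpnmb changed by -0.73 ± 0.21 and -0.81 ± 0.22 (edgeR adjusted p = 0.0022 and 0.0011), with 468, 11918 and 18807 CPM in old and 1791, 22744 and 26672 CPM in young libraries. Its young wild-type means were 24935 ± 1276, 11803 ± 8716, 23278 ± 1452 and 19142 ± 2975 CPM in untreated females, IFN females, untreated males and IFN males, and its young knock-in means 23860 ± 1361, 18369 ± 1756, 24515 ± 1643 and 22488 ± 6487 CPM. In the same order the old wild-type means were 15014 ± 1961, 8389 ± 4529, 13132 ± 3548 and 10472 ± 2705 CPM and the old knock-in means 12385 ± 1733, 11803 ± 2400, 12397 ± 2666 and 14240 ± 4367 CPM. The widest SD was that of wild-type young IFN females, a group that held a library at 1791 CPM.

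Of the 5 channels and transporters, 3 were lower under the old label and none higher in either genotype. Slc17a5, the sialic acid exporter, changed by -0.76 ± 0.09 and -0.75 ± 0.09, Npc1, the membrane partner of Npc2 in cholesterol export, by -0.57 ± 0.09 and -0.52 ± 0.09, and the cystine exporter Ctns by -0.38 ± 0.05 and -0.39 ± 0.05. The soluble Npc2 and the membrane-bound Npc1 thus changed in opposite directions. Mcoln1 (-0.11 ± 0.07 and -0.11 ± 0.07) and Cln3, whose loss causes juvenile Batten disease (0.04 ± 0.06 and 0.03 ± 0.06), were not called. Of the 5 proteases, phosphatases and nuclease, Acp2 was higher and 3 were lower: the asparagine-specific protease Lgmn (-0.68 ± 0.14 and -0.69 ± 0.14), the DNase Dnase2a (-0.39 ± 0.07 and -0.41 ± 0.07) and the tripeptidyl peptidase Tpp1 (-0.38 ± 0.07 and -0.39 ± 0.07).

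The age-label changes were also taken stratum by stratum. In the 8 strata of genotype, sex and treatment label, which share no library, 12 members had a positive and 20 a negative change in all 8. Plbd1, Ppt1, Gm2a and Acp2 were called higher in all 8, and Slc17a5, Ctns, Man2b1, Galc, Sgsh, Arsb and Lipa lower in all 8. How many of all genes kept the same sign or were called in all 8 was not counted. Between 18 and 26 members were called per stratum (36.7% to 53.1%), next to between 31.2% and 46.5% of all genes. None was called in opposite directions in different strata. For Plbd1 the stratum changes ran from 1.89, in wild-type IFN females, to 4.09, in knock-in IFN females. The difference between the genotypes in the age-label change was called for none of the 49 members and for 0% of all genes by edgeR, with 1 member at an unadjusted p under 0.05 (2.75% of all genes), and DESeq2 also called none.

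Other lysosomal genes, from lists chosen with earlier results of these data known, held calls in both directions, where 28.1% of all genes were higher and 33% lower. Of 32 tested further lysosomal genes, 14 were higher and 11 lower under the old label in the wild type (median log2 change -0.04), with Naaa (1.82 ± 0.08), an acid amidase, and Clcn7 (1.55 ± 0.07), the lysosomal chloride exchanger, at one end and the channel gene Tpcn1 (-1.75 ± 0.08) at the other. Of 13 cathepsins, 3 were higher and 5 lower, from 2.89 ± 0.11 for Ctsc to -1.73 ± 0.13 for Ctsl. Of 18 genes of the proton pump, 10 were higher and 5 lower, from 0.73 ± 0.04 for Atp6v0a2 to -1.47 ± 0.12 for its paralog Atp6v0a1. Of 9 genes of mannose-6-phosphate sorting, 4 were higher and 3 lower, with the receptor M6pr at 0.64 ± 0.04 and Sort1 at -1.92 ± 0.14. Among 19 genes of the TFEB family and nutrient sensing, 3 were higher and 9 lower, among them Mitf (-0.32 ± 0.04), Tfe3 (-0.19 ± 0.03) and Rragd (-1.37 ± 0.13), while Tfeb was not called. Lrrk2 itself was higher under the old label, at 1.65 ± 0.14 in wild-type and 1.84 ± 0.15 in knock-in cells.

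The 5 genes most like Plbd1 over the 63 libraries, ranked by Pearson correlation of log2 CPM among all genes tested, were Lap3, Cnn3, H2-DMb1, Wars and Zyx. Since the age labels form separate clusters, r is given within each as a description. Within the 27 young libraries it was 0.95, 0.96, 0.91, 0.88 and 0.84 for these genes in turn, and within the 36 old libraries 0.76, 0.75, 0.60, 0.65 and 0.76. H2-DMb1 is a chaperone of peptide loading on MHC class II and Wars a transfer RNA synthetase. The likeness to Plbd1 was thus closer among young than among old libraries for each of the 5.

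Under the IFN label, wild-type members moved almost all one way. In the wild type 33 of 49 members (67.3%) were called by edgeR, where 31.3% of all genes were. Of these 32 were lower under the IFN label (15.6% of all genes) and 1, Plbd1, was higher (15.6% of all genes). The median log2 change of the members was -0.22, next to -0.01 for all genes, and 43 of 49 had a negative sign. All 4 activators and carriers were lower, as were 6 of 9 coat proteins, 10 of 14 glycosidases, 3 of 5 transporters, 3 of 5 sulfatases, 3 of 7 lipid hydrolases and 3 of 5 proteases, phosphatases and nuclease. In bulk RNA such as this, fewer cells of a type and less RNA per cell cannot be told apart.

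**Figure D3:**
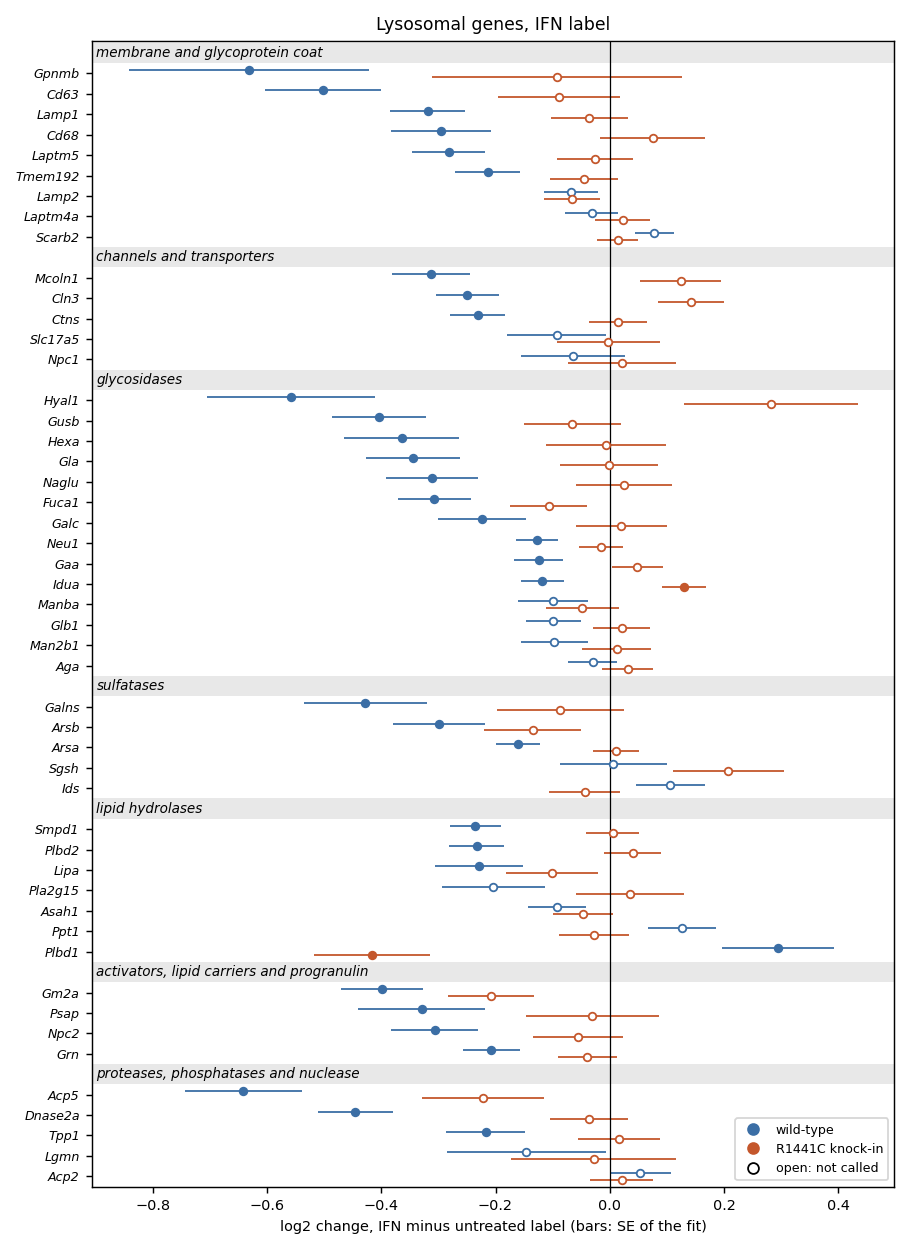
Log2 change between libraries labelled IFN and untreated for each of the 49 lysosomal genes, grouped by role, in wild-type (blue) and R1441C knock-in (orange) macrophages, with standard errors and filled points for an adjusted p under 0.05. Of the wild-type points 43 lie left of 0 and 33 are filled, and of the knock-in points 2 are filled, Idua to the right and Plbd1 to the left.

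Acp5, the tartrate-resistant acid phosphatase, had the largest decrease, -0.64 ± 0.10 (edgeR adjusted p = 3.1e-06). Its lowest, median and highest values were 41.7, 115 and 157 CPM in the 18 wild-type IFN libraries and 126, 164 and 251 CPM in the 14 untreated ones, so the upper IFN libraries overlapped the lower untreated ones. Cd63, a tetraspanin of late endosomes, stood at 282, 1039 and 1226 CPM under IFN and 1185, 1318 and 1631 CPM without it, a change of -0.50 ± 0.10 (edgeR adjusted p = 0.00014). Lamp1 stood at 1299, 2380 and 2654 against 2557, 2794 and 3266 CPM, a change of -0.32 ± 0.06 (edgeR adjusted p = 0.00015). In both genes the ranges met only at the top of the IFN and the bottom of the untreated libraries.

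Dnase2a changed by -0.45 ± 0.07, Gusb, the glucuronidase, by -0.40 ± 0.08, Gm2a by -0.40 ± 0.07, Hyal1 by -0.56 ± 0.15, Galns by -0.43 ± 0.11 and Gpnmb by -0.63 ± 0.21 (edgeR adjusted p from 6.8e-07 for Dnase2a to 0.017 for Gpnmb). Smaller decreases were called for Mcoln1 (-0.31 ± 0.07), Npc2 (-0.31 ± 0.08) and Grn (-0.21 ± 0.05). Plbd1 rose by 0.29 ± 0.10 (edgeR adjusted p = 0.017), a mean of opposite changes: 1.47 ± 0.22 in young and -0.63 ± 0.17 in old females. Ppt1, too, was called higher in young (0.61 ± 0.13) and lower in old wild-type females (-0.31 ± 0.10). Lamp2, Scarb2 and Sgsh were not called.

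The other lysosomal lists also held mostly lower calls under this label, where 15.6% of all genes were lower and 15.6% higher in the wild type. Of 18 proton pump genes 15 were lower and none higher in the wild type (median log2 change -0.30), of 32 further lysosomal genes 15 were lower and 1 higher, and of 13 cathepsins 6 were lower and 2 higher. Tfeb, the transcription factor of the lysosomal gene network, changed by -0.42 ± 0.08.

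The decrease under the IFN label was called mainly in wild-type females. In old females 23 members were lower and none higher (10.5% and 8.71% of all genes), and in young females 15 were lower and 2 higher (5.48% and 9.18% of all genes). In old males 3 were lower (1.57% of all genes), Gaa, Acp5 and Neu1. In young males none was called, by edgeR at 0.275% of all genes, with 3 at an unadjusted p under 0.05 (8.88% of all genes), and 42 of the 49 had a negative sign. The difference between the sexes in this label's change was not tested. The difference between age labels in the IFN-label change was called for no member by edgeR (0.623% of all genes called, 0.0452% higher, 4 members and 12.6% of all genes at an unadjusted p under 0.05), and DESeq2 called 1.

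The wild-type female IFN groups each held a library that stood far below its replicates in lysosomal transcripts, library 2 of the old and library 1 of the young. Their mean log2 CPM over the 49 members was 7.12 and 7.46, while the other 61 libraries lay between 7.94 and 8.35. Gpnmb was at 468 and 1791 CPM there, against at least 7955 CPM elsewhere, Psap at 6821 and 9047 against at least 23702 CPM, and Lgmn at 204 and 752 CPM. For 28 members these 2 libraries were the lowest of the 63, and for 39 members 1 of them was the lowest. How often this held among all genes was not counted. Total counts were 98.0 M in the old library and 73.6 M in the young one, the lowest total of the 63. Not all members were low: Scarb2 was at 311 and 297 CPM, within the range of the others, and Acp2 at 345 CPM in the old one, where the others ended at 371 CPM. In the 2 libraries Tfeb stood at 33.5 and 37.0 CPM, against 59.1 to 112 CPM elsewhere.

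**Figure D4:**
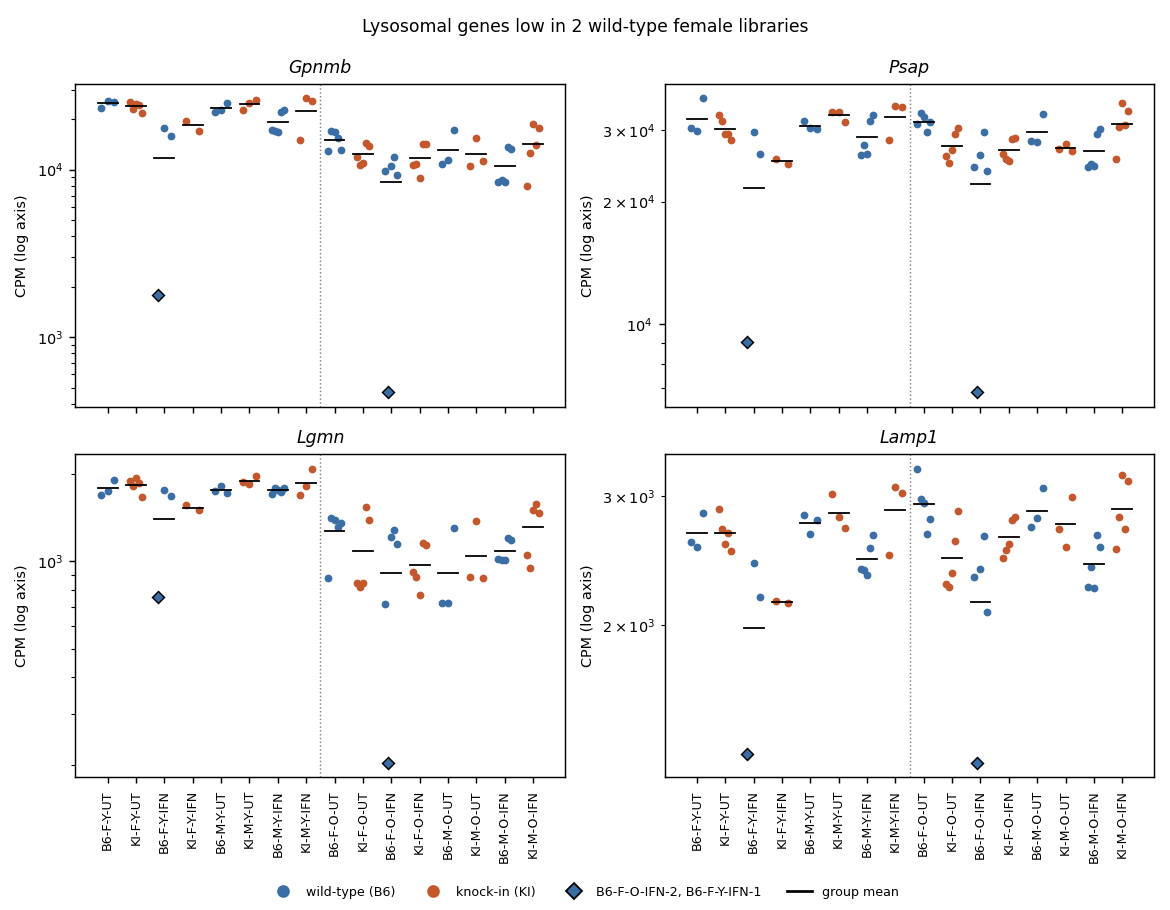
CPM in each library (points, log axes) for Gpnmb, Psap, Lgmn and Lamp1 in the 16 groups, with group means as bars and the dotted line between young (left) and old (right) labels. Diamonds mark library 2 of wild-type old IFN females and library 1 of wild-type young IFN females, which are the lowest pair in the Gpnmb, Psap and Lamp1 panels. For Lgmn the old one is lowest, and the young one, at 752 CPM, lies above another library at 716 CPM.

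These libraries did not carry the whole decrease. Without them 32 wild-type members were called under the IFN label, 31 of them among the 33, with 30 lower and 2 higher. The median log2 change of the members was then -0.16, a smaller decrease than with all libraries, next to -0.02 for all genes. The same 2 libraries were the highest in B-cell transcripts, with 2169 and 2963 CPM summed over 10 markers and Cd79a at 197 and 311 CPM. Their summed macrophage markers, 27794 and 30823 CPM, lay within the 20560 to 38912 CPM of the other libraries. Csf1r (1814 and 1923 CPM) and Itgam (328 and 393 CPM) stood above all other libraries, and Lyz2 (20753 and 23773 CPM) lay within their range. The lysosomal members summed to 20802 and 26502 CPM there, against at least 55075 CPM elsewhere. The summed B-cell markers did not overlap between treatment labels in the wild type. They ran from 96.5 to 2963 CPM under IFN and from 23.8 to 73.8 CPM untreated. Of these markers 10 of 10 were called higher, where 15.6% of all genes were. None of the 10 was at 0 in any library. The mast cell markers (6 of 6 called higher) summed to between 3.94 and 114 CPM under IFN and to between 3.37 and 8.29 CPM untreated. The T and NK cell markers (8 of 10 called higher) summed to between 1.55 and 15.6 CPM and to between 0.702 and 1.90 CPM. Of the 10 IFN-response genes, 7 were called higher under this label, a mean over unlike strata. In young wild-type libraries these genes summed to 754 to 3173 CPM under IFN and 209 to 721 CPM untreated. In old ones they summed to 12845 to 16841 CPM under IFN and 13511 to 21151 CPM untreated. Over all wild-type libraries the medians were 13113 CPM under IFN and 14346 CPM untreated. The part of B, mast, T and NK cells in the decrease of lysosomal transcripts was not tested.

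Leaving out the libraries with a trace of transcripts of the other sex lowered the wild-type count under the IFN label from 33 to 20, of which 19 were shared with the full count, while the count over all genes went from 6922 to 3406. These were libraries 4 and 5 of wild-type young IFN males, 1 and 5 of wild-type young IFN females, 3 of knock-in young untreated males and 2 and 5 of knock-in young untreated females. Gpnmb and Plbd1 were then no longer called, at -0.51 and 0.27 (edgeR adjusted p = 0.13 and 0.11). With near-identical libraries joined, 23 members were called, all lower, and Gpnmb and Plbd1 again missed the threshold (edgeR adjusted p = 0.13 and 0.054).

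In knock-in macrophages the IFN label went with few changes. Of 49 members 2 were called (4.08%, against 7.98% of all genes). Idua, the iduronidase of heparan and dermatan sulfate, was higher by 0.13 ± 0.04 (3.68% of all genes higher) and Plbd1 lower at -0.42 ± 0.10 (4.31% lower) (edgeR adjusted p = 0.023 and 0.0049). The Plbd1 call was lost without library 1 of knock-in young IFN females, of which there are 2 (-0.30, edgeR adjusted p = 0.10), and the Idua call without the knock-in old untreated males (0.12, edgeR adjusted p = 0.082) or without libraries with a trace of the other sex (0.11, edgeR adjusted p = 0.079). Idua also missed the threshold with a replicate block (0.12, edgeR adjusted p = 0.20), and both missed it with near-identical libraries joined (edgeR adjusted p = 0.14 for Idua and 0.089 for Plbd1). The median log2 change of the members was -0.01. The summed B-cell markers in knock-in libraries were 79.8 to 686 CPM under IFN and 38.4 to 104 CPM untreated, with overlap.

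The difference between the genotypes in the IFN-label change was itself called for 14 members (28.6%), where 12% of all genes were. In 13 of them the knock-in change lay above the wild-type change (6.03% of all genes), and for Plbd1 it lay below (-0.71 ± 0.14, edgeR adjusted p = 0.0015; 6.01% of all genes). This difference uses the same libraries as the changes in each genotype. Cln3 differed by 0.39 ± 0.08, from -0.25 in the wild type to 0.14 in the knock-in (edgeR adjusted p = 0.0016). Idua differed by 0.25 ± 0.05, Mcoln1 by 0.44 ± 0.10 and Dnase2a by 0.41 ± 0.09 (edgeR adjusted p = 0.0024, 0.0034 and 0.0044). Lamp1 (0.28 ± 0.09) and Cd68 (0.37 ± 0.13) were among the 13, while Grn, Npc2, Lamp2, Scarb2 and Gpnmb were not called.

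Mcoln1 shows the pattern in single libraries. In wild-type cells it stood at 55.3, 92 and 120 CPM (lowest, median and highest) under IFN and 87.5, 117 and 126 CPM untreated, and in knock-in cells at 98.3, 111 and 127 and 80.2, 100 and 136 CPM. The medians thus ran in opposite order in the genotypes, and all 4 ranges overlapped. The count of 14 fell to 5 without the knock-in old untreated males, whose treatment labels conflict, to 4 without the libraries with a trace of the other sex, and to 1 when near-identical libraries were joined. The count over all genes fell with it, from 2666 to 1491, 675 and 100. In old wild-type males Hyal1 was at 8.88, 9.45 and 5.87 CPM untreated and 4.02, 3.76, 4.69, 5.37 and 5.66 CPM under IFN, and in old knock-in males at 7.72, 6.17 and 8.35 and 12.2, 10, 8.76, 7.18 and 7.84 CPM. In the wild type every IFN value of Hyal1 lay below every untreated one, and in the knock-in the ranges overlapped. Of these wild-type IFN libraries, 1 and 3, 2 and 3, and 4 and 5 were near-identical pairs, as were 3 and 5 of the knock-in. The values may thus stand for fewer separate samples than libraries.

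Few of these genes were called between R1441C knock-in and wild-type macrophages. Over the 8 strata of sex, age and treatment label, 1 of 49 members (2.04%) was called in knock-in against wild-type macrophages, where 1.16% of all genes were. That member was Scarb2, lower, at -0.15 ± 0.02 on the log2 scale (edgeR adjusted p = 0.00049; 0.682% of all genes were lower). The change was negative in 8 of 8 strata, from -0.28 in young IFN females to -0.01 in old untreated males. It missed the threshold when near-identical libraries were joined, with the same log2 change of -0.15 (edgeR adjusted p = 0.053). The median change of the 49 members was 0.06, next to -0.01 for all genes, and 41 had a positive sign. That median was 0.03 without the 2 low wild-type libraries. At an unadjusted edgeR p under 0.05 there were 13 members (26.5%), next to 17% of all genes.

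**Figure D5:**
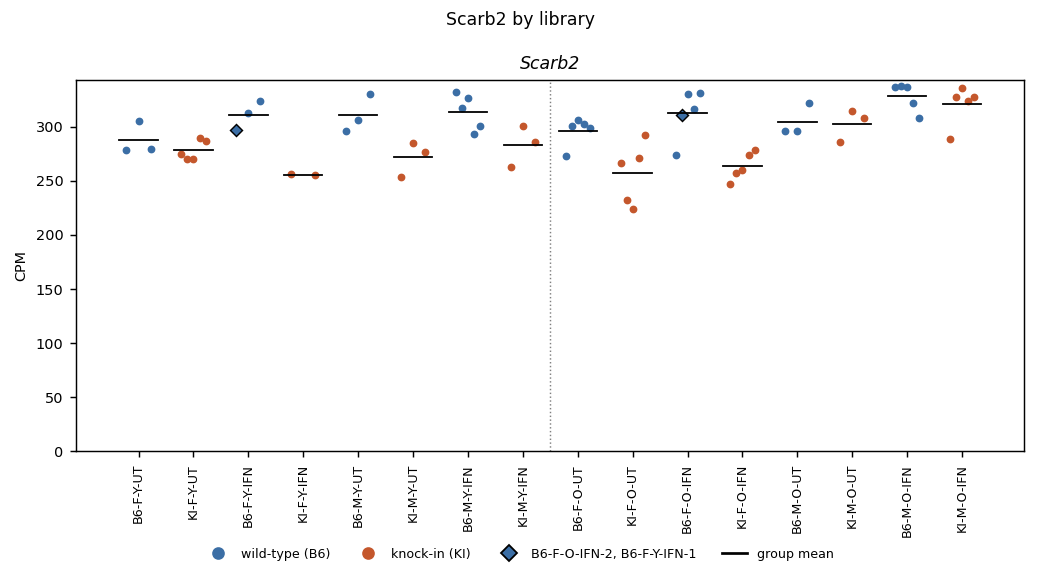
Scarb2 in CPM for each library (points) of the 16 groups, with group means as bars and the dotted line between young (left) and old (right) labels. Knock-in means lie below wild-type means in each of the 8 strata, most clearly in IFN females, and the axis starts at 0.

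Scarb2 in old IFN females stood at 274, 311, 330, 316 and 331 CPM in the wild type and 247, 258, 260, 274 and 278 CPM in the knock-in, where only the lowest wild-type library fell into the knock-in range. In young IFN females it stood at 297, 312 and 324 against 256 and 255 CPM, without overlap, where the knock-in libraries were a near-identical pair. In old untreated females the values were 273, 301, 306, 302 and 299 against 266, 232, 224, 271 and 293 CPM. The change was called in old (-0.25 ± 0.06) and young (-0.28 ± 0.09) IFN females (edgeR adjusted p = 0.013 and 0.047), and in no other stratum. The genotype change did not pass the test for a difference between the sexes for any member by edgeR (0.00452% of all genes, 5 members and 16.5% of all genes at an unadjusted p under 0.05) or DESeq2.

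In old IFN females 6 members were called, where 4.48% of all genes were, with 5 higher in the knock-in (1.63% of all genes) and 1 lower (2.85%): Gm2a (0.59 ± 0.13), Plbd1 (0.65 ± 0.17), Dnase2a (0.38 ± 0.11), Fuca1 (0.36 ± 0.11) and Plbd2 (0.27 ± 0.08), next to Scarb2. Without the low library 2 of the wild type none of the 6 was called (37 of all genes were), with Scarb2 at -0.24 (edgeR adjusted p = 0.076) and Gm2a at 0.43 (edgeR adjusted p = 0.055). Without that library and library 1 of the young together, Scarb2 (-0.25) and Gm2a (0.43) were called, and without the knock-in libraries 4 and 5, which were nearly without sex-specific transcripts, 2 were. In old IFN males 7 members were called (5.92% of all genes), all 7 higher (3.92% of all genes): Hyal1 (0.97 ± 0.26), Dnase2a (0.42 ± 0.11), Grn (0.30 ± 0.09), Gaa (0.25 ± 0.07), Plbd2 (0.28 ± 0.08), Laptm5 (0.36 ± 0.11) and Cln3 (0.30 ± 0.10). The Grn values there were 2153, 2145, 2127, 2351 and 2283 CPM in the wild type and 2455, 2666, 2996, 2716 and 2797 CPM in the knock-in. This count was 0 without library 1 of the wild type (487 of all genes called). It was also 0 without library 2 of the knock-in, 1 without library 3 of the knock-in, and 2 without library 2 or 5 of the wild type. The count was 19 with only the groups compared (3592 of all genes), and 23 without the 2 low libraries of the female strata (2514). No member was called in old IFN females, young IFN females or old IFN males when near-identical libraries were joined.

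The young female libraries differed between the genotypes in their IFN-response genes, in opposite directions under the treatment labels. These genes summed to 209 to 721 CPM in wild-type and 733 to 1420 CPM in knock-in untreated libraries. Under IFN they summed to 1914 to 3173 CPM and 397 to 1040 CPM. Their part in the changes that follow was not tested. In the same libraries Plbd1 too differed between the genotypes in opposite directions under the treatment labels. In untreated libraries it was at 10.8, 14.8 and 21.4 CPM in the wild type and 30.8, 36.5, 31.1, 31.7 and 33 CPM in the knock-in, without overlap, a change of 1.06 ± 0.20 (edgeR adjusted p = 0.013; 0.312% of all genes called, 0.167% higher). In IFN libraries it was at 44.2, 37.2 and 49.2 against 10.4 and 19.5 CPM, a change of -1.55 ± 0.26 (edgeR adjusted p = 0.00042; 3.79% of all genes called, 1.37% higher and 2.42% lower). Ppt1 was also lower in the knock-in there (-0.61 ± 0.15, edgeR adjusted p = 0.013), with Scarb2 as the third of 3 members called. The untreated call was lost without library 1 of the wild type (0.85, edgeR adjusted p = 0.48) and the IFN calls without library 1 of the knock-in, which leaves a single knock-in library assumed to vary like the other groups.

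In the other 4 strata no member was called by edgeR, in old untreated females, old untreated males, young IFN males and young untreated males (0.00452%, 0.00452%, 0.0181% and 0% of all genes, in young IFN males 0.00903% higher and 0.00903% lower). At an unadjusted p under 0.05 there were 15, 2, 8 and 3 members, next to 19.4%, 3.35%, 8.35% and 11.6% of all genes, and DESeq2 called none. In old untreated females 45 of the 49 members had a negative sign, with a median log2 change of -0.19 next to -0.01 for all genes. Mean log2 CPM over the members was 7.99, 7.96 and 7.99 in knock-in libraries 1 to 3. It was 8.14 and 8.22 in knock-in libraries 4 and 5, and 8.18 to 8.29 in the wild type. Summed macrophage markers were 20560 to 21772 CPM in knock-in libraries 1 to 3. They were 29891 and 30353 CPM in 4 and 5, and 28695 to 33236 CPM in the wild type. The part of this split in the negative signs was not tested. Without library 4 of the knock-in, 7 members were called in this stratum, as were 2518 of all 22147 genes. Without library 5, 6 members were. In old IFN females and males the sign was the opposite, positive in 44 and 45 members, with medians of 0.19 and 0.22. The median in old IFN females was 0.08 without the 2 low wild-type libraries and 0.04 when the 2 libraries nearly without sex-specific transcripts were left out as well. The Lrrk2 transcript was not called between genotypes in the mean over strata (-0.26 ± 0.10, edgeR adjusted p = 0.16), and a missense knock-in need not change it.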

How the data were processed

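RNA of 63 libraries was sequenced with a directional poly(A) kit, per the labels' protocols. STAR 2.7.9a, the genome build GRCm39 and DESeq2 1.40.2 are named in the submitters' processing notes. Counting program, annotation and strandedness were not given in the sources used here. Raw counts per gene and FPKM values, made by the authors, were deposited. FPKM served only to compare levels between genes.

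Counts were normalised by TMM and fitted with edgeR 4.0.16 (quasi-likelihood F test, R 4.3.3, limma 3.58.1) on all 16 groups, after edgeR's filter on low counts. Benjamini-Hochberg adjustment covered all 22147 genes within each contrast, with a threshold of 0.05. CPM are TMM-scaled, and log2 CPM used a prior count of 1. A contrast over strata is their unweighted mean. The code was tested on simulated data.

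The members and gene lists were chosen with earlier results of these data known. The genes named were up to 8 called members each way by log2 change for the label contrasts, up to 6 each way by adjusted p for genotype contrasts and up to 4 each way for interactions. Full group values were given for the 6 members with the widest range, and Lamp1, Lamp2, Grn, Scarb2, Mcoln1, Gpnmb, Npc2 and Lrrk2 were always named. Other members are given to complete their role group. Alternatives were DESeq2 1.42.0, its size factors, no filter, only the groups compared, a replicate block, and leaving out or joining libraries. Libraries with a ratio to counting noise under 10 were joined as near-identical.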

Additional observations from a re-analysis of the deposited data

Results flagged for a closer look

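In each group of 4 to 10 libraries the lowest and highest values were compared with their nearest neighbour by Dixon's test. This was done for the members with full values or always named and for the mean over the 49 members, for 104 group values in all. There were 7 that stood apart, where chance gives about 1 in 20, so the number lay near that rate. In wild-type old IFN females, library 2 had the lowest mean log2 CPM over the 49 members, 7.12, with the next at 7.95. Gpnmb in that library was 468 CPM, with the next at 9339, and Galc was 43.2 CPM, with the next at 95.4. In wild-type old untreated females, library 1 had the lowest Sgsh, 18.4 CPM against 28.4 for the next, and the lowest Scarb2, 273 against 299 CPM. Galc in library 2 of wild-type old IFN males was 101 CPM, with the next at 108. Scarb2 in library 1 of knock-in old IFN males was 289 CPM, with the next at 324.

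The IFN-label change differed between the genotypes for 14 members, by the edgeR test of that difference. The log2 difference, knock-in minus wild-type, was 0.84 for Hyal1, 0.44 for Mcoln1, 0.41 for Dnase2a, 0.39 for Cln3, 0.37 for Cd68, 0.34 for Gusb and 0.34 for Naglu. It was 0.28 for Lamp1, 0.27 for Plbd2, 0.25 for Idua, 0.24 for Ctns, 0.24 for Smpd1 and 0.17 for Arsa. Plbd1 alone lay the other way, at -0.71.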

How the results depend on the processing

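Counts of members called under the age label lay between 32 and 40 in both genotypes under each alternative run, and the calls of the 32 named results of that label were kept. Over all 65 named results and their alternatives, 690 of 780 values stayed on their side of the threshold, 90 missed it with the same direction and 0 reversed. The families were unlike: under the age label 384 values stayed and 0 missed, while for genotype contrasts 132 stayed and 72 missed. With near-identical libraries joined, 24 of the 65 results missed the threshold, and in the least favourable leave-one-out fit of each, 18 did. The counts that moved by more than 1.5 times were as follows, and the cause was not tested.

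For the IFN label, the wild-type count of 33 became 20 without libraries with a trace of the other sex, an alternative chosen after seeing the data, and ranged from 27 to 35 when 1 library was left out. The knock-in count of 2 became 4 with only the groups compared, 1 without knock-in old untreated males, 4 without the 2 low wild-type libraries, 0 with near-identical libraries joined and 5 without 4 doubted libraries (the 2 low ones and the 2 nearly without sex transcripts, chosen after seeing the data). It ranged from 1 to 4 when 1 library was left out. The genotype by IFN count of 14 became 5, 1 and 4 without knock-in old untreated males, with near-identical libraries joined and without libraries with a trace of the other sex, and ranged from 9 (without library 1 of wild-type young untreated males) to 21 (without library 2 of wild-type young IFN females). The age by IFN count of 0 became 1 with DESeq2 and ranged from 0 to 1.

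For genotype, the mean over strata gave 4 with DESeq2, 6 without knock-in old untreated males, 2 without the 2 low libraries, 0 with libraries joined, 4 without 4 doubted libraries, and 1 to 5 when 1 library was left out. In old IFN females the count of 6 became 3 with no filter, 0 with only the groups compared, 2 without the libraries nearly without sex transcripts, 2 without the 2 low libraries, 0 joined and 2 without 4 doubted libraries, and ranged from 0 to 16. In old untreated females it was 1 without the 2 low libraries and 0 to 7 when 1 was left out. In young IFN females the count of 3 became 0 with only the groups compared, 0 joined and 1 without libraries with a trace of the other sex, and ranged from 0 to 8. In young untreated females it was 2 with only the groups compared and 0 to 1 when 1 was left out. In old IFN males the count of 7 became 4 with no filter, 14 with DESeq2, 19 with only the groups compared, 23 without the 2 low libraries, 0 joined and 20 without 4 doubted libraries, and ranged from 0 to 18. The genotype contrast in old untreated males could not be fitted without its knock-in libraries.

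Replicate numbers were not treated as pairs in the main fit, since the labels do not tie them to a mouse or batch. Whether same-numbered libraries shared a batch was not tested. Same-numbered libraries correlated above 0.1 in 18 of 26 pairs across age labels (from -0.73 to 0.69, median 0.29). They did so in 15 of 26 across treatment labels (from -0.41 to 0.70, median 0.17). Across age labels every pair did so in wild-type IFN males (from 0.25 to 0.61), wild-type untreated females (from 0.33 to 0.62) and knock-in IFN males (from 0.17 to 0.37), among groups with 3 or more pairs. With the replicate block, the age counts were 35 and 32, the IFN counts 32 in the wild type and 1 in the knock-in, the genotype by IFN count 19, and the genotype count over strata 1. Leave-one-out fits reused the genes and trended dispersion of the full fit.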
